A study of Mus musculus with 54 samples.

Results

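The Slc22 genes encode solute carriers that move organic anions, organic cations, zwitterions and carnitine across cell membranes. In the kidney they sit mainly in the proximal tubule, where members on the blood side take drugs, toxins and signalling lipids out of the circulation and members on the urine side recover or release them. In the brain the organic anion members are known from the blood-brain barrier and choroid plexus, and in heart muscle the carnitine member feeds fatty acid oxidation. The genes described here were 9 members of the family, Slc22a2, Slc22a4, Slc22a5, Slc22a6, Slc22a7, Slc22a8, Slc22a12, Slc22a19 and Slc22a22, taken by the symbol of their Ensembl ID from 54232 genes in the count files. They were chosen by their measured levels across the aged kidney, brain and heart and by their difference between Cmpd60 and vehicle kidneys, above all the lower Slc22a22, so those values are given as a description without a test.

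The study asked how Cmpd60, a benzamide inhibitor of the histone deacetylases HDAC1 and HDAC2, changed gene expression across organs of old mice. Male BL6 mice of about 20 months carrying no transgene were injected intraperitoneally each day for 14 days, with 22.5 mg/kg Cmpd60 or with its DMSO, PEG400 and saline vehicle, and mRNA was sequenced from kidney (6 Cmpd60, 5 vehicle), brain (6 and 6) and heart (5 and 6). The same regimen was given to APPSWE-1349 mice of 6 to 7 months, whose transgene encodes a human amyloid precursor protein with the Swedish mutation, and to BL6 control mice of the same cohort, giving brain libraries from 4 Cmpd60 and 6 vehicle transgenic mice and from 5 and 5 controls. The promoter that drives the transgene is not stated in the sources used here. The labels do not say which organs came from the same mouse.

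The 54 libraries held 23584609 to 57430113 reads assigned to genes. In the kidney set the treatment field of all 11 libraries gave the opposite of the title, the source name and the study's own column headings. The titles were followed, and under the treatment field every kidney difference below would change its sign while its size stayed the same. 1 transgenic library, vehicle by its labels and Cmpd60 by a column heading of the study, was left out of the fits. Kidney Cmpd60 replicate 55 stood apart, with Havcr1, an injury marker of the proximal tubule, at 582 CPM against 9.51 to 185 CPM in the other 10 kidney libraries. Bulk tissue was sequenced, so fewer tubule cells and less RNA per tubule cell cannot be told apart.

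The promoters of Slc22a22, with its upstream and downstream starts, and of Slc22a19 are shown because Slc22a22 was lower in every Cmpd60 kidney than in any vehicle kidney, while Slc22a19 had the highest log2 fold change of the 9 genes, with groups that overlapped. Each line gives the 250 bases before a RefSeq transcript start in GRCm38.p6, 5′ to 3′ on the strand of the gene, and 8 of the 9 genes had an entry. Capitals mark matches, on either strand, to TGTTCT (a core sequence shared by several steroid hormone receptors) or to TATAAA (the TATA box). A search for the HNF4 site CAAAGTCCA found no match in these windows. These letters were found in only 0.384% of all promoters of this length, so nothing is read from their absence.
Slc22a22 upstream start, chr15:57477626-57477875, minus strand: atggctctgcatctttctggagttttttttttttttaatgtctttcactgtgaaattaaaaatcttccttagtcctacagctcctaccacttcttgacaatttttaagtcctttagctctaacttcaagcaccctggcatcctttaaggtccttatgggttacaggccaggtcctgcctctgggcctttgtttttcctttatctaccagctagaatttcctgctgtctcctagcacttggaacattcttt
Slc22a22 downstream start, chr15:57265162-57265411, minus strand: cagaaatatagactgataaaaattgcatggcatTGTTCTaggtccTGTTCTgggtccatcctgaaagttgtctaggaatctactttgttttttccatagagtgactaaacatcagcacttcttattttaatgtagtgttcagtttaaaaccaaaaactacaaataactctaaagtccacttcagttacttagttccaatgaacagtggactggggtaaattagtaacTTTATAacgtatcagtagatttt
Slc22a19, chr19:7711311-7711560, minus strand: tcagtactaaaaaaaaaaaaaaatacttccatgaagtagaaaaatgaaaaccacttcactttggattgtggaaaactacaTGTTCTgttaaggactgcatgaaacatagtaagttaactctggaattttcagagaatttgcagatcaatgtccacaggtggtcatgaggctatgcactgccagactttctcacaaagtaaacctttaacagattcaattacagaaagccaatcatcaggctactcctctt

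TGTTCT occurred at 2 positions before the downstream start of Slc22a22, at bases -217 to -212 and -205 to -200, and at 1 position before Slc22a19, at -170 to -165. It was found in 16.1% of the 32851 promoters of this length. The downstream Slc22a22 window also held the reverse complement of TATAAA at -23 to -18, letters found in 12.4% of promoters. Gene counts do not say which of the Slc22a22 starts was used.

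In vehicle-treated aged mice, each of the 9 genes was higher in every kidney library than in any brain or heart library. The plot of levels by tissue shows this on a scale corrected for exon length, reads per kilobase of exon and per 1000000 reads (RPKM). The highest was Slc22a12 (URAT1, which reabsorbs urate from the tubule lumen) at 595 ± 105 RPKM (SD, n = 5), followed by Slc22a6 (OAT1, basolateral uptake of organic anions) at 196 ± 26.9 RPKM. Slc22a8 (OAT3, a basolateral anion exchanger of broad specificity) stood at 115 ± 17.7 RPKM, Slc22a2 (OCT2, basolateral uptake of organic cations) at 102 ± 15.7 RPKM and Slc22a5 (OCTN2, the sodium-dependent carnitine transporter) at 82.0 ± 7.51 RPKM. Neighbours overlapped in this middle group, Slc22a8 with Slc22a2 and Slc22a2 with Slc22a5.

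The lower kidney group began with Slc22a22 (OAT-PG, which takes up prostaglandins in the mouse proximal tubule) at 28.8 ± 5.54 RPKM. Slc22a4 (OCTN1, which carries ergothioneine) at 22.5 ± 5.48 RPKM and Slc22a7 (OAT2, an organic anion transporter) at 20.2 ± 6.38 RPKM overlapped with it in the chain of neighbours. Slc22a19 (OAT5, a luminal organic anion exchanger) was the lowest at 9.24 ± 0.554 RPKM and stood apart from Slc22a7.

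**Figure D1:**
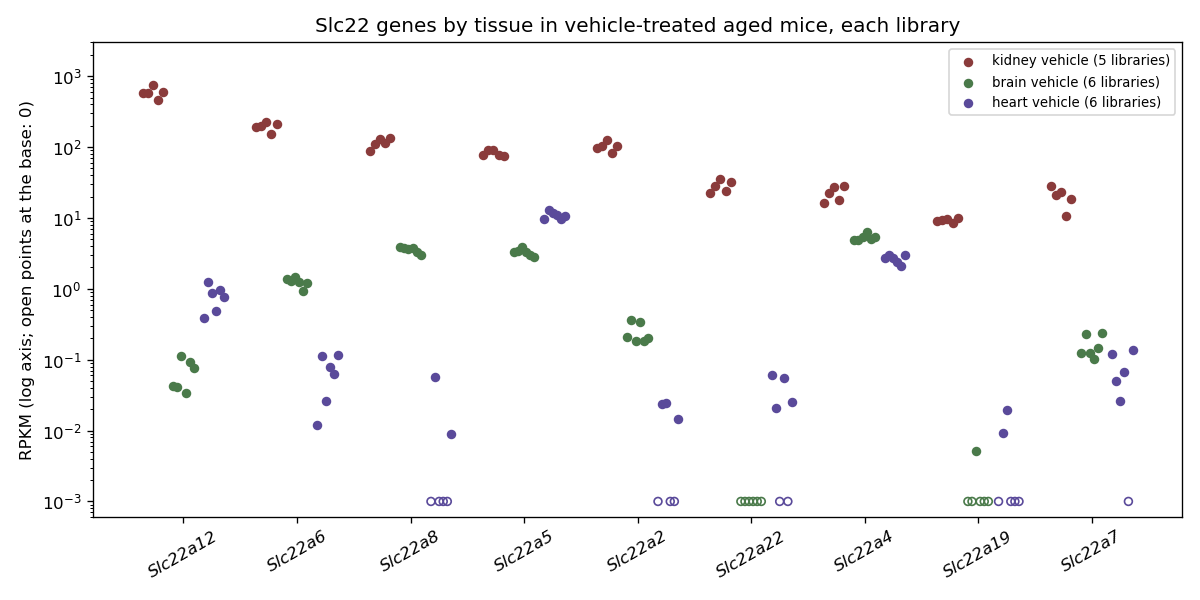
Levels of the 9 Slc22 genes in vehicle-treated aged mice, in RPKM on a log axis, with 1 point per library for kidney (n = 5), brain (n = 6) and heart (n = 6) and open points at the base for 0. The kidney points lie above all brain and heart points for each gene, from 595 RPKM for Slc22a12 to 9.24 RPKM for Slc22a19 on average.

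Outside the kidney the order of the genes was different. In vehicle brain Slc22a4 led at 5.34 ± 0.588 RPKM (SD, n = 6), ahead of Slc22a8 at 3.55 ± 0.332 RPKM and Slc22a5 at 3.29 ± 0.367 RPKM, which overlapped, and of Slc22a6 at 1.26 ± 0.188 RPKM. The remaining 5 were below 1 RPKM. In vehicle heart Slc22a5, the carnitine transporter, led at 10.9 ± 1.18 RPKM (SD, n = 6), with Slc22a4 at 2.67 ± 0.36 RPKM and Slc22a12 at 0.786 ± 0.311 RPKM. The other 6 were below 0.1 RPKM in mean and their neighbours overlapped.

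Slc22a22 and Slc22a19 were found almost only in kidney. Slc22a22 had 14646 reads over the 11 kidney libraries, 0 reads over the 12 aged brain libraries and 10 reads over the 11 heart libraries. Against a floor of 3 reads in the smallest brain library, vehicle kidney was at least 619-fold higher than brain in CPM scaled over the 34 aged libraries. Slc22a19 had 22586 kidney reads, 1 brain read and 3 heart reads. Slc22a4 was the most evenly spread, with vehicle kidney 4.22 times the brain level and 8.45 times the heart level on the same CPM scale.

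Slc22a22 was lower in every Cmpd60 kidney than in any vehicle kidney. Its values in the vehicle libraries were 58.3, 73.7, 92.4, 62.9 and 84.2 CPM (reads per 1000000 after TMM scaling of the kidney set), and in the Cmpd60 libraries 21.1, 13.6, 33.4, 17.3, 17.6 and 13.2 CPM. The highest treated value, 33.4 CPM, stayed under the lowest vehicle value, 58.3 CPM. The means were 19.4 ± 7.46 CPM (SD, n = 6) and 74.3 ± 14.2 CPM (SD, n = 5), a log2 fold change of -1.94 (SE 0.21) by the edgeR quasi-likelihood fit over all genes. Under the kidney treatment field, which reverses the groups, the same values would read as higher in Cmpd60 mice.

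Slc22a19 and Slc22a8 lay mostly on the other side of their vehicle values. Slc22a19 measured 51.8, 53.0, 55.3, 48.5 and 56.6 CPM in vehicle mice and 100.5, 73.3, 114, 73.7, 78.4 and 42.6 CPM in Cmpd60 mice. The treated library at 42.6 CPM was replicate 55, and the other 5 treated libraries were above all vehicle libraries. The log2 fold change was 0.60 (SE 0.18). With 1 library left out in turn it ran from 0.47 (without Cmpd60 replicate 52) to 0.73 (without replicate 55).

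Slc22a8 measured 326, 401, 474, 415 and 490 CPM in vehicle mice. In Cmpd60 mice it measured 732, 539, 720, 493, 492 and 309 CPM, with 5 of 6 above every vehicle library and replicate 55 below them all. The log2 fold change was 0.38 (SE 0.19). Slc22a6, which carries an overlapping set of anions, measured 825, 843, 959, 654 and 891 CPM in vehicle mice and 969, 968, 818, 572, 509 and 436 CPM in Cmpd60 mice, so that the treated libraries fell on either side of the vehicle range at a log2 fold change of -0.23 (SE 0.20).

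**Figure D2:**
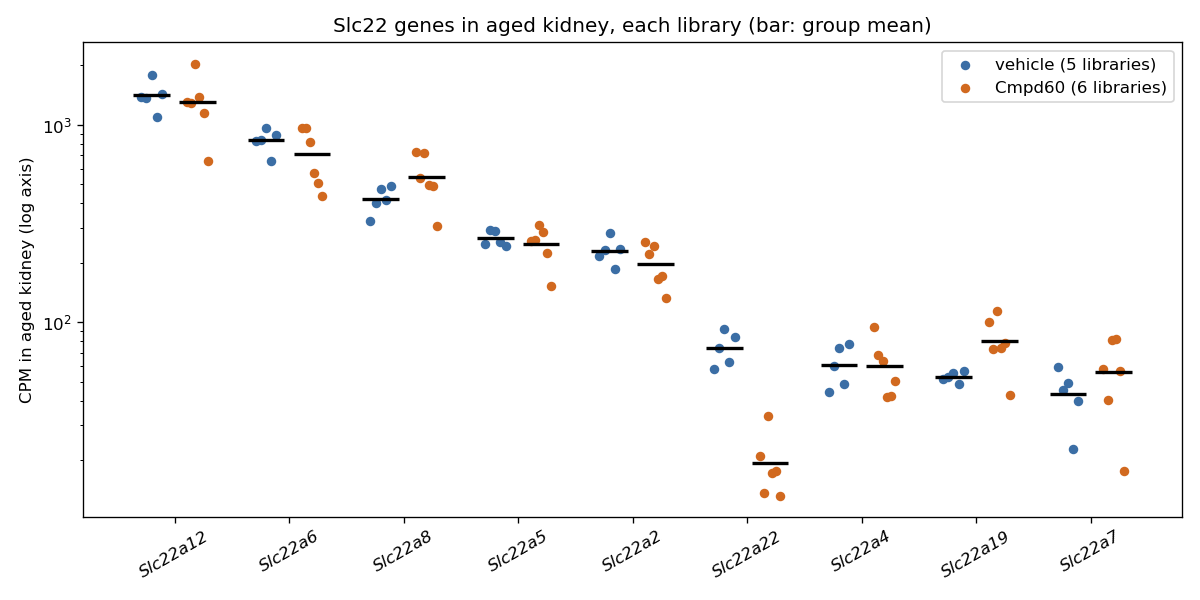
Levels of the 9 Slc22 genes in aged kidney in CPM on a log axis, with 1 point per library (blue vehicle, n = 5; orange Cmpd60, n = 6) and a bar at each group mean. Slc22a22 is the gene whose groups do not overlap, at 13.2 to 33.4 CPM in Cmpd60 mice and 58.3 to 92.4 CPM in vehicle mice.

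The remaining 5 genes overlapped between the kidney groups. Slc22a12 ranged from 1097 to 1791 CPM in vehicle mice and from 655 to 2034 CPM in Cmpd60 mice, with a log2 fold change of -0.12 (SE 0.21). Slc22a2 ranged from 185 to 283 CPM and from 133 to 254 CPM, with a log2 fold change of -0.22 (SE 0.16). The lowest treated value of both genes was in replicate 55.

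The carnitine transporter Slc22a5 ranged from 244 to 294 CPM in vehicle and 152 to 309 CPM in Cmpd60 kidneys, at a log2 fold change of -0.10 (SE 0.15). Slc22a4, the ergothioneine carrier, ranged from 44.1 to 77.4 CPM and from 41.8 to 94.1 CPM, at -0.02 (SE 0.21). Slc22a7 spread most for its level, from 22.7 to 59.6 CPM in vehicle and from 17.7 to 82.1 CPM in Cmpd60 kidneys, at 0.37 (SE 0.31).

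By count, 1 of the 9 genes, Slc22a22, had an adjusted p below 0.05 in the kidney fit, where 0.3% of the 20698 genes tested did. Groups that did not overlap were found for 1 of 9, Slc22a22, against 2.3% of all genes. This contrast was used to choose the genes, so nothing is read from these counts. The members next to Slc22a22 in size of difference were Slc22a19 at 0.60 and Slc22a8 at 0.38. Leaving out replicates 54 and 55, the treated libraries with the highest Havcr1, which was decided after seeing the data, gave log2 fold changes of -1.80 for Slc22a22, 0.77 for Slc22a19, 0.56 for Slc22a8 and -0.01 for Slc22a6.

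Ratios of reads within a library do not depend on the scaling between libraries. Slc22a22 made up 1.81, 2.19, 2.27, 2.26 and 2.37% of the reads of the 9 genes in vehicle kidneys and 0.556, 0.392, 0.756, 0.555, 0.640 and 0.732% in Cmpd60 kidneys. Per 1000 reads of 10 proximal tubule markers, among them the endocytic receptor Lrp2 and the phosphate carrier Slc34a1, Slc22a22 gave 3.96 to 5.65 reads in vehicle and 1.01 to 1.85 reads in Cmpd60 kidneys. In replicate 55, where most members were at their lowest, it gave 1.50 reads, inside the range of the other treated libraries.

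Slc22a8 per Slc22a6 read was 0.395, 0.476, 0.494, 0.635 and 0.550 in vehicle kidneys and 0.755, 0.556, 0.881, 0.862, 0.968 and 0.708 in Cmpd60 kidneys. The groups overlapped by 1 treated library, replicate 51 at 0.556. Slc22a19 per Slc22a22 read was 0.599 to 0.889 in vehicle and 3.22 to 5.38 in Cmpd60 kidneys. These ratios come from the contrast that chose the genes and were not tested.

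**Figure D3:**
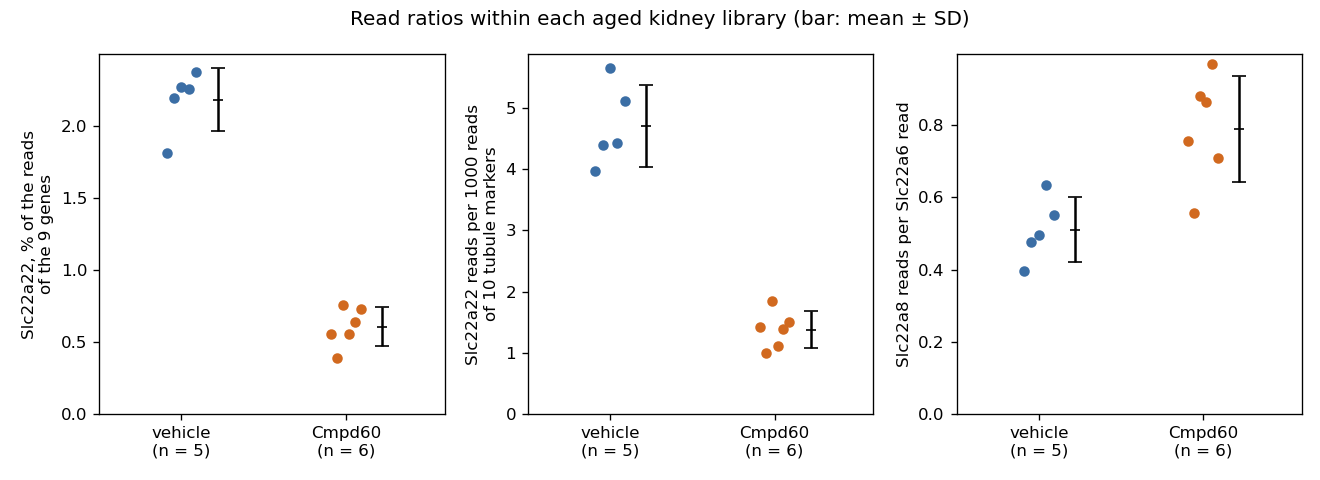
Read ratios within each aged kidney library, with 1 point per library and bars for mean ± SD (vehicle n = 5, Cmpd60 n = 6). From left to right the axes give Slc22a22 as a percentage of the reads of the 9 genes (1.81 to 2.37% in vehicle, 0.392 to 0.756% in Cmpd60), Slc22a22 reads per 1000 proximal tubule marker reads, and Slc22a8 reads per Slc22a6 read.

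Marker lists were measured beside these values. The 10 proximal tubule markers had 0 of 10 past the adjusted threshold, 7 below 0 and a median log2 fold change of -0.19, and their summed level ranged from 14227 to 16785 CPM in vehicle and from 8846 to 18073 CPM in Cmpd60 kidneys, with the lowest in replicate 55. The 4 injured tubule markers, which include Havcr1 and Lcn2, had 0 of 4 past the threshold, 4 above 0 and a median log2 fold change of 1.45. By edgeR 1 of the 4 had an unadjusted p below 0.05 (11.3% of all genes did). They summed to 76.3 to 287 CPM in vehicle and to 54.3 to 1087 CPM in Cmpd60 kidneys. The groups overlapped in both sums, and the part of tubule injury in the values of the 9 genes was not tested.

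The other 17 named Slc22 genes in the files were also measured. In the kidney fit 15 of them were tested and 0 passed the adjusted threshold of edgeR's quasi-likelihood test, while 5 had an unadjusted p below 0.05 (11.3% of all genes did), and the median log2 fold change was 0.04 against 0.00 for all genes. Slc22a28 and Slc22a30 had log2 fold changes of -0.62 (SE 0.16, adjusted p = 0.132) and -0.50 (SE 0.20, adjusted p = 0.376). Slc22a28 passed the threshold with DESeq2 (adjusted p = 0.0161), where 2.07% of all genes did, and by edgeR without Cmpd60 replicate 52 (adjusted p = 0.0479), where 0.638% did. It did not pass in the other alternatives, with an adjusted p of 0.117 by limma-voom and up to 0.305 by edgeR (without vehicle replicate 47). Of the 50-base windows of Slc22a28 transcripts 53.9% were shared with another gene, most often Slc22a30. Reads of such windows may not be told apart by gene. Slc22a22 shared 0% of its windows with any other annotated gene, Slc22a19 shared 2.72%, and Slc22a5 shared 26.2%, mostly with Slc22a21.

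Among 21 genes that make, move, break down or sense prostaglandins, the substrates of OAT-PG, 2 rose and 1 fell in Cmpd60 kidneys, and 18 did not pass the test, where 0.3% of all genes passed. The list was chosen with earlier results of these data known, so nothing is read from this count. Cbr1, a carbonyl reductase that converts prostaglandin E2 to F2α, was 50.7 to 78.3 CPM in vehicle and 100.4 to 180.5 CPM in Cmpd60 kidneys, with no overlap (log2 fold change 1.16, SE 0.17, adjusted p = 0.00679 by edgeR). Abcc4, an efflux pump that exports prostaglandins, was 91.2 to 110 CPM and 124 to 169 CPM (0.48, SE 0.09, adjusted p = 0.0384). Ptgfr, the receptor for prostaglandin F2α, was 41.5 to 54.9 CPM and 28.7 to 34.1 CPM (-0.51, SE 0.09, adjusted p = 0.0197). With 1 library left out in turn, Cbr1 kept its call in all 11 fits, Ptgfr lost it in 4 of 11 (adjusted p up to 0.0651) and Abcc4 in 8 of 11 (adjusted p up to 0.136).

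Genes of that list with no call included the degrading enzyme Hpgd at a log2 fold change of -0.29 (SE 0.13, adjusted p = 0.426), the other prostaglandin uptake carrier Slco2a1 at 0.14 (SE 0.09, adjusted p = 0.573) and the synthases Ptgs1 at 0.07 (SE 0.08, adjusted p = 0.786) and Ptgs2 at -0.05 (SE 0.32, adjusted p = 0.969), all by edgeR. The median of the list was 0.00, as for all genes.

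Of 15 carriers that share substrates with the Slc22 proteins or empty them into urine, 1 rose and 14 did not pass. Over all genes 0.3% passed. The 1 that rose was Abcc4, already counted among the prostaglandin genes, with a call lost in 8 of 11 fits that left out 1 library. Slc47a1, the luminal exporter of organic cations taken up by OCT2, was 454 to 572 CPM in vehicle and 321 to 522 CPM in Cmpd60 kidneys (log2 fold change -0.39, SE 0.12, adjusted p = 0.22). Slc5a8, a monocarboxylate carrier that works with URAT1, was -0.54 (SE 0.18, adjusted p = 0.271), and the median of the list was -0.08. Among 12 scaffold and regulator genes 0 passed, with a median of -0.02. The scaffold Pdzk1 was 0.03 (SE 0.13, adjusted p = 0.951) and the tubule factor Hnf4a was -0.09 (SE 0.15, adjusted p = 0.871). Of 8 measured carnitine genes 0 passed, with a median of -0.17.

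Androgens are known to raise a set of genes in the mouse proximal tubule, and Slc22a22 is known to be higher in male than in female kidney. Of 10 such androgen-raised genes 0 passed the adjusted threshold of edgeR, 9 had an unadjusted p below 0.05 (11.3% of all genes did), and all 10 had log2 fold changes below 0, with a median of -0.63 against 0.00 over all genes tested. By DESeq2 3 of the 10 were past the threshold, as were 2.07% of all genes. By edgeR 2 of 10 were without Cmpd60 replicate 52 (0.638% of all genes) and 1 of 10 without replicate 55 (0.438% of all genes). Without both Cmpd60 kidneys of highest Havcr1 it was 1 of 10 (79 genes higher and 63 lower of 20280). In the other alternatives, among them limma-voom, 0 of 10 were. All 10 stayed below 0 in each alternative, and the median was -0.51 without replicate 55 and -0.45 without both kidneys of highest Havcr1. Kap, the kidney androgen-regulated protein, measured 7968 to 12089 CPM in vehicle and 3034 to 6303 CPM in Cmpd60 kidneys (log2 fold change -0.80, SE 0.18, adjusted p = 0.0924 by edgeR). Cyp7b1, a steroid hydroxylase, was -1.02 (SE 0.25, adjusted p = 0.108), and Slco1a1, an organic anion carrier, was -1.42 (SE 0.44, adjusted p = 0.22). Of 2 genes raised in female kidney 0 passed, with 1 above and 1 below 0 and a median log2 fold change of 0.01. These lists were chosen with earlier results of these data known, and the part of androgen action in the Slc22a22 values was not tested.

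**Figure D4:**
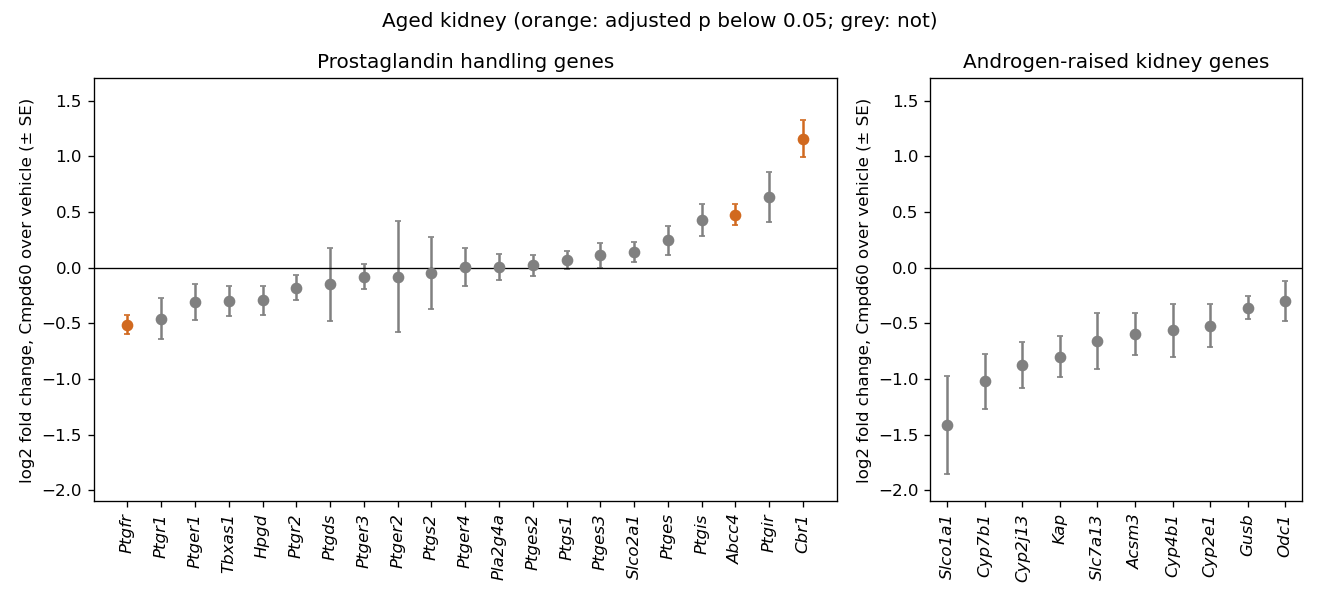
Log2 fold change of Cmpd60 over vehicle in aged kidney (± SE) for 21 prostaglandin genes (left) and 10 androgen-raised genes (right), in orange where the adjusted p was below 0.05. Cbr1, Abcc4 and Ptgfr are in orange, and the 10 androgen-raised genes all lie below 0 with 0 in orange.

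The 5 genes whose log2 CPM was most like that of Slc22a22 over the 11 kidney libraries, of 14428 genes compared, were Lipo1 (Pearson r = 0.987), Tmigd1 (0.970), Sdc2 (0.968), Glb1l (0.965) and Serpinf2 (0.963). The 11 points share the treatment groups, which set Slc22a22 apart, so this likeness includes the difference between groups. Lipo1, a lipase family gene, had group means of 51.3 CPM in vehicle and 16.6 CPM in Cmpd60 kidneys. Glb1l, a galactosidase-like gene, had means of 120 and 101 CPM.

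In the aged brain, 7 of the 9 genes passed the filter on low counts and 0 of 7 passed the adjusted threshold, where 0.0205% of all 24438 genes did. By unadjusted p below 0.05 there were 2 of 7, Slc22a6 and Slc22a12, against 13.8% of all genes. Slc22a6 ranged from 4.54 to 7.22 CPM with a median of 6.11 CPM in vehicle mice and from 3.74 to 5.79 CPM with a median of 4.88 CPM in Cmpd60 mice. The groups overlapped, and the log2 fold change was -0.31 (SE 0.12, adjusted p = 0.283 by edgeR's quasi-likelihood test).

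Slc22a8, found with Slc22a6 in choroid plexus and brain vessels, ranged from 12.4 to 16.0 CPM (median 15.3) in vehicle and from 12.3 to 18.3 CPM (median 15.1) in Cmpd60 brains, with a log2 fold change of 0.05 (SE 0.09, adjusted p = 0.865 by edgeR). Slc22a5 ranged from 10.3 to 14.4 CPM (median 12.0) and from 10.5 to 14.0 CPM (median 12.9), at 0.08 (SE 0.09, adjusted p = 0.734). Slc22a4 ranged from 14.6 to 19.5 CPM (median 16.0) and from 12.9 to 21.2 CPM (median 15.6), at 0.03 (SE 0.11, adjusted p = 0.948). For these 3 genes the values of the groups lay over each other.

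Slc22a12 was near the floor in aged brain, below 1 CPM in each of the 12 libraries, with a log2 fold change of 1.08 (SE 0.42, adjusted p = 0.282 by edgeR). The 6 choroid plexus markers, which include Ttr, summed to 550 to 774 CPM in vehicle and 228 to 951 CPM in Cmpd60 brains with 0 of 6 past the threshold, so libraries differed in their choroid plexus RNA. Its part in the Slc22a6 and Slc22a8 values was not tested. Over the 12 brain libraries the gene most like Slc22a8 was Slco1a4, an organic anion carrier of brain vessels (Pearson r = 0.912), and Gtf3a (0.903), Parp12 (0.894) and Rtraf (0.890) were also among the 5 most alike. For Slc22a6 they were B230206H07Rik (0.919), Ankrd44 (0.859), Stk35 (0.857), Pigq (0.839) and ENSMUSG00000097626 (0.828). These points share libraries and depth, and 15424 genes were compared.

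In the aged heart 6 of the 9 genes passed the filter, and 0 of 6 passed the adjusted threshold, where 1.18% of all 19452 genes did. Slc22a5 measured 24.5, 30.9, 28.2, 26.3, 24.6 and 25.4 CPM in vehicle hearts and 24.2, 19.2, 25.0, 23.8 and 20.3 CPM in Cmpd60 hearts. In 4 of 5 treated hearts it was below every vehicle heart, and the other, at 25.0 CPM, lay within the vehicle range. The groups thus overlapped. Groups with no overlap, a stricter condition that Slc22a5 did not meet, were found for 2.69% of all genes. The share of genes with a partial separation like this was not measured. The log2 fold change was -0.24 (SE 0.09, unadjusted p = 0.0158, adjusted p = 0.228, edgeR), which does not pass over all genes, while 13.5% of all genes had an unadjusted p below 0.05.

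Slc22a4 ranged from 4.46 to 6.06 CPM (median 5.59) in vehicle and from 3.94 to 5.56 CPM (median 5.00) in Cmpd60 hearts, with a log2 fold change of -0.18 (SE 0.14, adjusted p = 0.611 by edgeR). Slc22a12 ranged from 0.717 to 2.16 CPM and from 0.662 to 1.57 CPM, at -0.39 (SE 0.34, adjusted p = 0.682). Of 8 measured carnitine genes 0 passed in heart, 6 lay below 0, and the median was -0.12. Of the 21 prostaglandin genes 1 passed in heart, the carrier Slco2a1, where 1.18% of all genes did. The list was chosen with earlier results of these data known, so nothing is read from this count. Slco2a1 ranged from 5.74 to 7.92 CPM in vehicle and from 8.61 to 10.3 CPM in Cmpd60 hearts (0.46, SE 0.11, adjusted p = 0.0484 by edgeR). Its call was lost in 10 of the 11 fits that left out 1 library (adjusted p up to 0.139) and in 3 of 5 other alternatives.

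**Figure D5:**
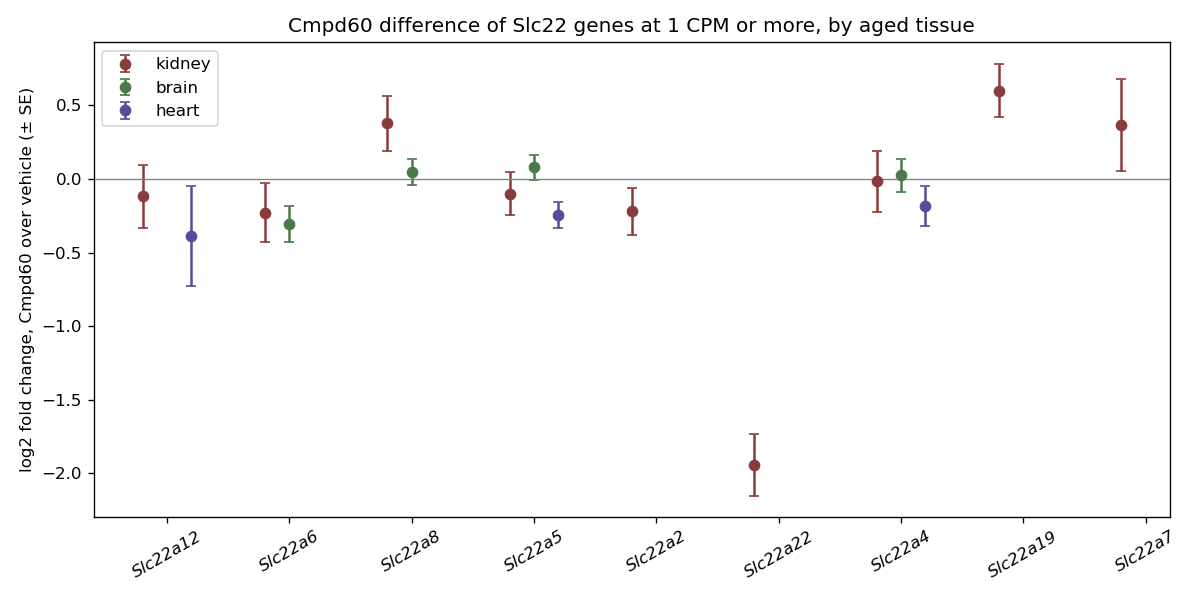
Log2 fold change of Cmpd60 over vehicle (points, ± SE) for the Slc22 genes with a mean of 1 CPM or more in aged kidney, brain or heart. Slc22a22 in kidney lies at -1.94, and the other points lie between -0.39 (Slc22a12 in heart) and 0.60 (Slc22a19 in kidney).

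The difference between the heart and brain effects was fitted in 1 model over the 34 aged libraries. This model treated the libraries as independent, although organs of the same mouse were among them. For Slc22a5 the heart effect minus the brain effect was -0.34 on the log2 scale (SE 0.17, adjusted p = 0.553 by edgeR), and for Slc22a4 it was -0.23 (SE 0.25, adjusted p = 0.886). For Slc22a12, with 121 reads over the brain and 403 over the heart libraries, it was -1.50 (SE 0.61, unadjusted p = 0.0193, adjusted p = 0.447 by edgeR). All 9 genes were in this fit, but Slc22a19 and Slc22a22 passed its count filter only through their kidney reads, so their outcome carries no information. Of the 9 genes 0 passed the adjusted threshold, which 0.0517% of all genes did. By unadjusted p below 0.05 there was 1, Slc22a12, against 9.08% of all genes. Slc22a2, Slc22a6, Slc22a7 and Slc22a8 had 9 to 50 reads over the 11 heart libraries and standard errors of 0.76 to 1.46. Slc22a19 and Slc22a22 had 1 and 0 reads in brain and 3 and 10 reads in heart.

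In the APPSWE-1349 cohort 7 of the 9 genes were tested in brain and 0 of 7 passed the adjusted threshold in either genotype, where 0% of all genes did. By unadjusted p below 0.05 there were 0 of 7 in control brain (3.67% of all genes) and 1 of 7, Slc22a12, in transgenic brain (9.46% of all genes). Slc22a4, Slc22a5, Slc22a6 and Slc22a8 were again the members at 1 CPM or more, and Slc22a22 had 0 reads in all 20 libraries. In transgenic brain the log2 fold changes of these 4 were 0.08 (SE 0.27, adjusted p = 0.995), 0.47 (SE 0.36, adjusted p = 0.8), -0.52 (SE 0.90, adjusted p = 0.97) and 0.23 (SE 0.27, adjusted p = 0.926) by edgeR.

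In control brain they were 0.12 (SE 0.25), -0.02 (SE 0.34), -0.17 (SE 0.85) and 0.17 (SE 0.25), each with an adjusted p of 0.999 by edgeR. Slc22a6 had 0 reads in 1 Cmpd60 and 1 vehicle control library, against 3.72 to 11.9 CPM in the other 8 control libraries. These were also the libraries with the fewest genes detected of the 54, 15084 and 15044. Slc22a12 did not overlap between the transgenic groups, but at 0.198 to 1.64 CPM in Cmpd60 mice and at most 3 reads in any vehicle library its difference was 3.72 (SE 1.65, adjusted p = 0.479), and 2.31% of all genes did not overlap in this contrast.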

How the data were processed

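Messenger RNA was isolated with oligo-dT beads from kidney, brain and heart and sequenced as directional libraries. The authors trimmed reads with Trimmomatic 0.32, aligned them with HISAT2 2.1.0 and counted them per Ensembl gene with HTSeq 0.11.0, keeping the read direction, after FastQC. The genome build of the counts is not given in the sources used here. The deposited values are raw counts per gene and library, and lines that name no gene (15.4 to 22.1% of each file's total) were left out.

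Counts were tested with edgeR 4.0.16 (quasi-likelihood, TMM scaling) on genes counted above 2 in 3 or more of the fitted libraries, separately for kidney, brain and heart, in 1 fit for the APPSWE-1349 cohort, and in 1 fit over the 34 aged libraries for the heart and brain effects. P-values were adjusted by Benjamini-Hochberg over all genes of a fit, with a threshold of 0.05. In the fits of 1 organ they measure the spread between mice, with 1 library per mouse. The paper reports fewer aged mice than the 34 aged libraries, so the fit over these held several organs of the same mouse. It had no term for the mouse and treated the libraries as independent, so its standard errors and p-values leave this pairing out. CPM values in 1 tissue use that tissue's TMM factors. RPKM values use factors over the 34 aged libraries and union exon lengths of GENCODE vM1. Likeness is Pearson's r of log2 CPM with a prior count of 2 among genes of at least 1 CPM. The floor of 3 counts covers counting error only, at 0.127 CPM in the smallest heart library.

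The members and the gene lists were chosen with earlier results of these data known. The text names the 9 members, other Slc22 genes and lists by count, list genes past the threshold and up to 4 others per list, and the 5 genes most alike to Slc22a22, Slc22a6 and Slc22a8. Some genes that this rule names are not reported here. Alternatives were DESeq2 1.42.0, limma-voom 3.58.1, median-ratio scaling, other count filters and each library left out. The fits were tested on simulated data. No 2 replicates agreed within sampling noise.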

Additional observations from a re-analysis of the deposited data

Results flagged for a closer look

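6 of 48 combinations of gene and group held a library far from the rest of its group on the log2 CPM scale. Chance alone gives about 1 in 20. All 6 were in brain libraries of the APPSWE-1349 cohort, where the spread between mice was widest. For Slc22a4 a control vehicle library measured 12.5 CPM against 16.4 to 17.6 CPM in the other 4, and a transgenic vehicle library measured 32.5 CPM against 13.0 to 14.3 CPM. For Slc22a5 a transgenic Cmpd60 library measured 21.7 CPM against 9.13 to 9.55 CPM. For Slc22a6 a control Cmpd60 library had 0 CPM against 3.72 to 6.99 CPM, and a control vehicle library had 0 CPM against 4.44 to 11.9 CPM. The same vehicle library measured 6.39 CPM for Slc22a8 against 15.4 to 21.6 CPM in the other 4. The cause was not tested.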

How the results depend on the processing

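Slc22a22 kept its direction in kidney in each of 17 alternatives, at log2 fold changes of -2.16 to -1.80. This contrast was used to choose the gene and its groups did not overlap, so the kept direction is no further support. No member passed the adjusted threshold in brain, heart, the APPSWE-1349 cohort or the heart against brain difference in any alternative run. For that difference this says nothing of Slc22a19 and Slc22a22, which were almost without reads in both organs. All 9 genes stayed highest in kidney under total-count and median-ratio scaling and without each vehicle library. No paired analysis was possible because the groups share no replicate numbers.

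The number of genes called moved more. With DESeq2 it was 429 in kidney, 429 in brain, 746 in heart, 4 in control brain, 22 in transgenic brain and 187 for the heart against brain difference, where edgeR gave 62, 5, 229, 0, 0 and 14. Without the count filter it was 94 in kidney, 102 in brain, 2 in control brain and 8 in transgenic brain, and with limma-voom it was 2 in brain. Without both Cmpd60 kidneys of highest Havcr1, an alternative chosen after seeing the data, 79 genes were higher and 63 lower (39 and 23 with all libraries). Leaving out 1 library gave 20 (vehicle replicate 46) to 131 (Cmpd60 replicate 52) in kidney, 1 (Cmpd60 replicate 33) to 372 (vehicle replicate 29) in brain, 36 (Cmpd60 replicate 72) to 247 (Cmpd60 replicate 71) in heart, 0 to 2 in control brain, 0 to 1 in transgenic brain and 1 to 36 for the heart against brain difference. By unadjusted p below 0.05, edgeR gave 852 genes in control and 2195 in transgenic brain.

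Signs changed among uncalled brain values and, in kidney, for Slc22a4, Slc22a5 and Slc22a12, whose differences were near 0 and reached 0.087, 0.0088 and 0.020 with 1 library left out. In brain, leaving out 1 library gave -0.059 to 0.088 for Slc22a4 and -0.015 to 0.097 for Slc22a8 in aged brain, -0.11 to 0.068 for Slc22a5, -0.49 to 0.38 for Slc22a6 and -0.021 to 0.33 for Slc22a8 in control brain, and -0.013 to 0.43 for Slc22a4 in transgenic brain. Slc22a5 in control brain was 0.022 with limma-voom, and Slc22a4 in transgenic brain was -0.055 with the disputed library counted as Cmpd60. The cause was not tested. Members under 1 CPM in mean had standard errors from 0.29 (Slc22a7, aged brain) to 1.65 (Slc22a12, transgenic brain). The part of depth in these was not tested.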
